A study of Mus musculus with 159 samples.

Results

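The genes examined here are 9 genes of gluconeogenesis and glucose handling, Pck1, G6pc, Fbp1, Pklr, Ppargc1a, Tat, Irs2, Foxo1 and Slc2a2, which were chosen by name. They were looked up by gene symbol among the 9704 genes of the deposited value table, which was measured on Illumina MouseRef-8 beadchips. Of the 9 genes, 8 had at least 1 probe, with 3 probes for Slc2a2, 2 for Pklr and 1 for each of the others. Tat, an enzyme of tyrosine breakdown, was not analysed here. All 8 genes were held in liver, but Irs2 and Ppargc1a were left out of the DID liver values by the detection filter. In prefrontal cortex (PFC) 3 genes were held, Irs2, Foxo1 and Ppargc1a.

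The study used adult female C57BL/6J mice, with 80 liver and 79 PFC arrays and 1 mouse per array. Chronic mice had a continuous choice between 20% ethanol and water, chronic intermittent (CI) mice had the same choice every other day, and drinking in the dark (DID) mice had a short daily session of ethanol in the dark phase of a reversed light cycle. Each of these was set against water drinkers of its own, and tissue was taken about a day after the last ethanol. Lipopolysaccharide (LPS), an endotoxin, was given as 2 injections of 1 mg/kg a week apart, and tissue was taken a week after the second injection. The labels describe the controls of LPS as having water, whereas the study's methods describe saline injections. The labels give an age of 2.5 months throughout, whereas the methods give other ages at the start of the experiments, higher for Chronic and CI than for DID and LPS. There were 10 mice per group, except for 9 PFC controls of Chronic. DID mice were killed in their dark phase and the others in their light phase, so the level of a gene in DID and in the other treatments also differs by the phase of the day. PFC was the foremost part of the cortex and liver a piece of the lower lobes, so that both were mixtures of cell types, in which fewer cells of a type and less RNA per cell cannot be told apart. Of 10 hepatocyte markers 7 were held in every liver set, and of 10 neuron markers 8 were held in every PFC set.

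The liver keeps blood glucose steady between meals by making glucose from lactate, glycerol and amino acids. Glucagon, largely through cyclic AMP, and glucocorticoids, through their receptor, favour the enzymes of this route. The transcription factor FOXO1 and the coactivator PGC-1alpha (the product of Ppargc1a) favour them too. Insulin, acting through adaptors such as IRS2, opposes these actions. Liver pyruvate kinase (Pklr) runs the opposite way, the last step of glycolysis, and its gene is favoured by feeding and glucose. These genes are known to move within hours with meals and with the clock.

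The promoters of the 4 enzymes on which the liver results turn are shown first, because hormones are known to act on these genes through them. Each is 250 bases before to 50 bases after the start of the gene in RefSeq, build GRCm38.p6, printed 5′ to 3′ on the strand of the gene. Capitals mark a match on either strand to one of 8 motifs. The full cAMP response element was spelled TGACGTCA and its core, which the full element contains, was spelled TGACG. Forkhead factors were given the letters GTAAACA, and the core of the insulin response sequence was spelled CAAAACA. The basal promoter motifs were the Goldberg-Hogness box with the letters TATAAA and the box bound by nuclear factor Y with the letters CCAAT. The E box was spelled CACGTG, and the core site of the glucocorticoid receptor was spelled AGAACA. The Pck1 promoter lies at chr2:173152823-173153122 (plus strand), that of G6pc at chr11:101367466-101367765 (plus strand), that of Fbp1 at chr13:62888233-62888532 (minus strand) and the downstream one of the 2 starts of Pklr at chr3:89136373-89136672 (plus strand).
Pck1: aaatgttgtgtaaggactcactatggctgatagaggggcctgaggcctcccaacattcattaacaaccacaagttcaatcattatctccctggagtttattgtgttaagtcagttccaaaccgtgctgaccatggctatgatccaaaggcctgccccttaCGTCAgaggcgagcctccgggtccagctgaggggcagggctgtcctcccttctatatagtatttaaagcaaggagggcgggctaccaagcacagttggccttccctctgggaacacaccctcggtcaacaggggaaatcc
G6pc: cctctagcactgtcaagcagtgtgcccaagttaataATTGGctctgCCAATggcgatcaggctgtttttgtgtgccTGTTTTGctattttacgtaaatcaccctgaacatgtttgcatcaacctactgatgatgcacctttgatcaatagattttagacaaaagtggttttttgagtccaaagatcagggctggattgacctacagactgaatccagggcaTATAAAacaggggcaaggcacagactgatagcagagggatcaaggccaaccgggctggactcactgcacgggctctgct
Fbp1: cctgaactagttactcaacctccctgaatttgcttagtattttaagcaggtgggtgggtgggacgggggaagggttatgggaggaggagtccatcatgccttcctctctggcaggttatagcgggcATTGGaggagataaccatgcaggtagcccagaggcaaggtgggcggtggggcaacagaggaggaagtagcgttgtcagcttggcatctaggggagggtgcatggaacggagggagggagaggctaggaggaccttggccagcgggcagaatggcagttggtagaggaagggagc
Pklr: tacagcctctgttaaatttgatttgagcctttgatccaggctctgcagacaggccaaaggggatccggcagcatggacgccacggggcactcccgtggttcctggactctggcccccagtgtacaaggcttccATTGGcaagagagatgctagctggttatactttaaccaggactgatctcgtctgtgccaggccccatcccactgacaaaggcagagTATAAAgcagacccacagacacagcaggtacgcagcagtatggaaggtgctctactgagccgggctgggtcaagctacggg

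In the Pck1 promoter the match was the cAMP core, 90 bases upstream of the start and on the opposite strand, a motif present in 20.8% of the 32841 promoters of the same length. The G6pc promoter held the Goldberg-Hogness box 29 bases upstream (13.6% of promoters), the insulin response core 174 bases upstream (6.28%) and nuclear factor Y boxes 204 and 214 bases upstream (37.4%). The Pklr promoter held a Goldberg-Hogness box 31 bases upstream and a nuclear factor Y box 117 bases upstream, and the Fbp1 promoter a nuclear factor Y box 124 bases upstream. Over the promoters of all 9 genes the nuclear factor Y box was found in 7, the cAMP core in 2 (Pck1 and Ppargc1a), the insulin response core in 2 (G6pc and Irs2), the Goldberg-Hogness box in 2 and the E box in 1 (Irs2; 7.15% of promoters). The full cAMP element (1.79% of promoters), the forkhead letters (3.65%) and the glucocorticoid receptor site (19.0%) were found in none of these windows. These are matches of letters and not measured binding sites.

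All values are normalized log2 intensities. They were normalized within a tissue and treatment, so a level in one treatment cannot be set exactly against that in another, and the level of one probe says nothing of the level of another. A change is the treated mean less the control mean, and differentially expressed (DE) means an unadjusted p below 0.05 in limma, the threshold of the study's methods. A gene is said to rise or fall only where the Benjamini-Hochberg adjusted p over all entries of the comparison was below 0.05. For Slc2a2 and Pklr the brightest probe is used unless another is named.

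No gene of the set passed the adjusted threshold in any of the 8 comparisons by limma, where over all entries 1.5%, 0.23%, 0.0224% and 0.555% passed in Chronic, CI, DID and LPS liver and 0%, 0%, 0% and 0.113% in the same order in PFC. At an unadjusted p below 0.05, 5 of 30 changes in liver were DE (16.7%) and 0 of 12 in PFC. In Chronic liver 1 of 8 genes was DE (12.5%), against 12.1% of all 10068 entries. In CI liver it was 0 of 8, against 10.5% of all entries. In DID liver it was 2 of 6 (33.3%), against 5.19%, and in LPS liver 2 of 8 (25%), against 11.6%. These are 1 or 2 genes each, so that the shares are coarse, and in Chronic liver the share lay near that of all entries. The median change of the genes was 0.00 in Chronic, 0.02 in CI, -0.06 in DID and 0.10 in LPS liver, and the median over all entries was 0.00 in each. In LPS liver 7 of 8 genes had a treated mean above the control mean, against 48.8% of all entries, and in DID liver 1 of 6, against 49.2%. In no comparison were the treated and control values of a gene fully apart, which over all entries was the case for 0.129%, 0.0105%, 0.0112% and 0.0942% in Chronic, CI, DID and LPS liver and for 0.0247%, 0.00887%, 0% and 0.0348% in PFC, so that a count of 0 among 8 genes says little.

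**Figure D1:**
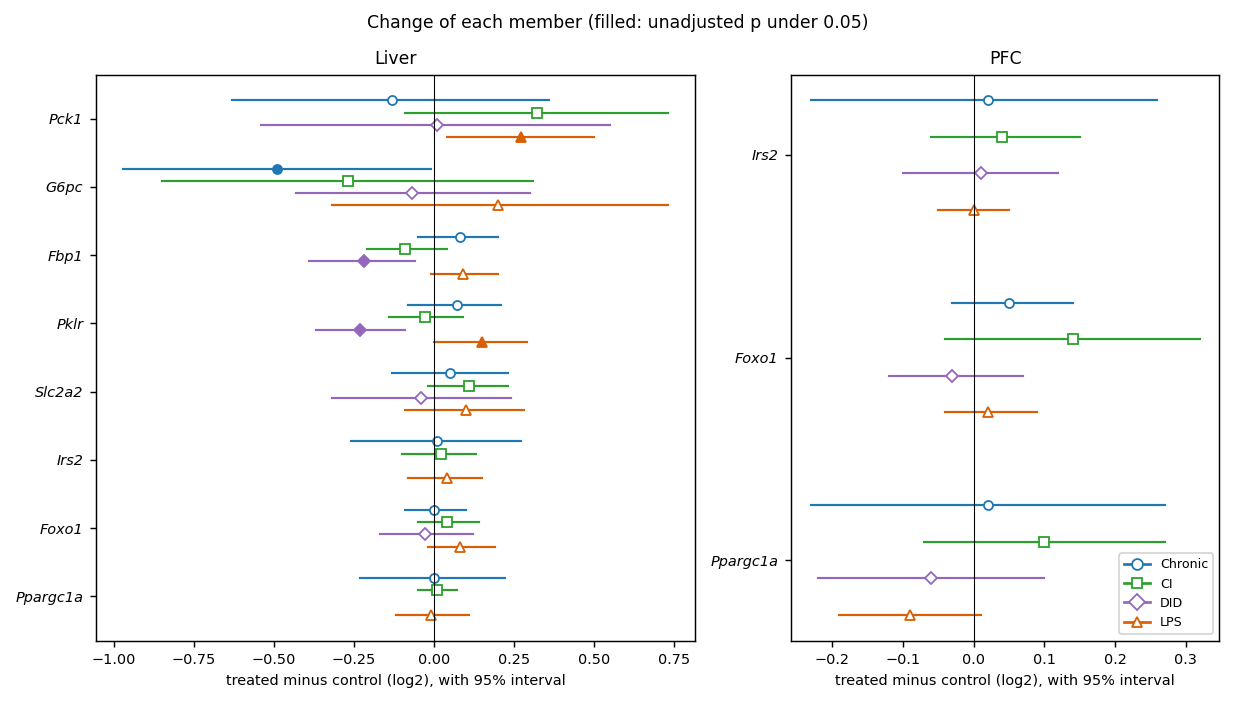
Change of each gene (treated minus control, log2) with its 95% interval, for liver on the left and PFC on the right, with 1 symbol and colour per treatment. Filled symbols mark the 5 DE changes, all in liver (G6pc in Chronic, Fbp1 and Pklr in DID, Pck1 and Pklr in LPS), and every other interval crosses 0.

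Pck1 encodes the cytosolic phosphoenolpyruvate carboxykinase, which commits oxaloacetate to gluconeogenesis. In LPS liver the controls lay between 8.36 and 9.43 (median 8.81) and the treated mice between 8.77 and 9.43 (median 9.22). The 2 groups reached the same highest value, and 9 of 10 treated mice were above the control median. The difference was 0.27 ± 0.11 (SE, n = 10 per group; 95% interval 0.04 to 0.50), or 1.21-fold higher (p = 0.0213, adjusted p = 0.302). With 3 array clusters as a term in the fit it was 0.21 ± 0.11 and no longer DE (p = 0.0598). Of these clusters 1 was a single control and 1 a single treated mouse, so that the term only set these mice aside. In CI liver the controls ranged from 8.39 to 10.13 (median 9.04) and the treated mice from 8.70 to 10.10 (median 9.55). The treated mice lay within the range of the controls, and the difference of 0.32 ± 0.20 was not DE (p = 0.115, adjusted p = 0.596). In Chronic liver the controls ranged from 9.89 to 12.17 (median 10.85) and the treated mice from 10.08 to 11.42 (median 10.62), a difference of -0.13 ± 0.24 (p = 0.581). The highest value was that of a control mouse. In DID liver the controls ranged from 8.18 to 10.19 (median 8.41) and the treated mice from 8.13 to 10.00 (median 8.64), a difference of 0.01 ± 0.26 (p = 0.977). The 95% intervals in Chronic (-0.63 to 0.36) and DID (-0.54 to 0.55) leave room for changes larger than the one in LPS.

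Fbp1 encodes fructose-1,6-bisphosphatase, the enzyme of the middle of the route. In DID liver its controls lay between 12.46 and 12.95 (median 12.66) and the treated mice between 12.06 and 12.78 (median 12.49). Of the treated mice 4 of 10 lay below the lowest control and 8 of 10 below the control median. The difference was -0.22 ± 0.08 (SE, n = 10 per group; 95% interval -0.39 to -0.06), or 1.17-fold lower (p = 0.0102, adjusted p = 0.592). In LPS liver the controls lay between 12.89 and 13.34 (median 13.13) and the treated mice between 13.12 and 13.30 (median 13.20), with 1 treated value blanked. The treated mice fell inside the upper part of the control range, and the difference was 0.09 ± 0.05 (p = 0.0786, adjusted p = 0.496). The differences were 0.08 ± 0.06 in Chronic (p = 0.210) and -0.09 ± 0.06 in CI liver (p = 0.167), neither of them DE.

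G6pc encodes the catalytic subunit of glucose-6-phosphatase, which releases free glucose from the cell. In Chronic liver the controls ranged from 10.92 to 13.30 (median 11.96) and the treated mice from 10.83 to 12.31 (median 11.39). Of the treated mice 8 of 10 lay below the control median and 3 below the lowest control. The difference was -0.49 ± 0.23 (SE, n = 10 per group; 95% interval -0.97 to -0.01), or 1.41-fold lower (p = 0.0456, adjusted p = 0.396). Control replicate 4, at 13.30, stood above the next control at 12.18, and without it the difference was -0.34 ± 0.20 (p = 0.0963). The difference was also not DE without any one of 12 other mice, with p between 0.0510 and 0.0872, nor with array clusters as a term (-0.35, p = 0.102), with array weights (p = 0.0765) or with an intensity trend and robust prior (p = 0.0566). In the other treatments G6pc spanned 1.19 to 2.32 log2 units within a group. Its differences were -0.27 ± 0.28 in CI (p = 0.348), -0.07 ± 0.18 in DID (p = 0.704) and 0.20 ± 0.25 in LPS liver (p = 0.431).

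**Figure D2:**
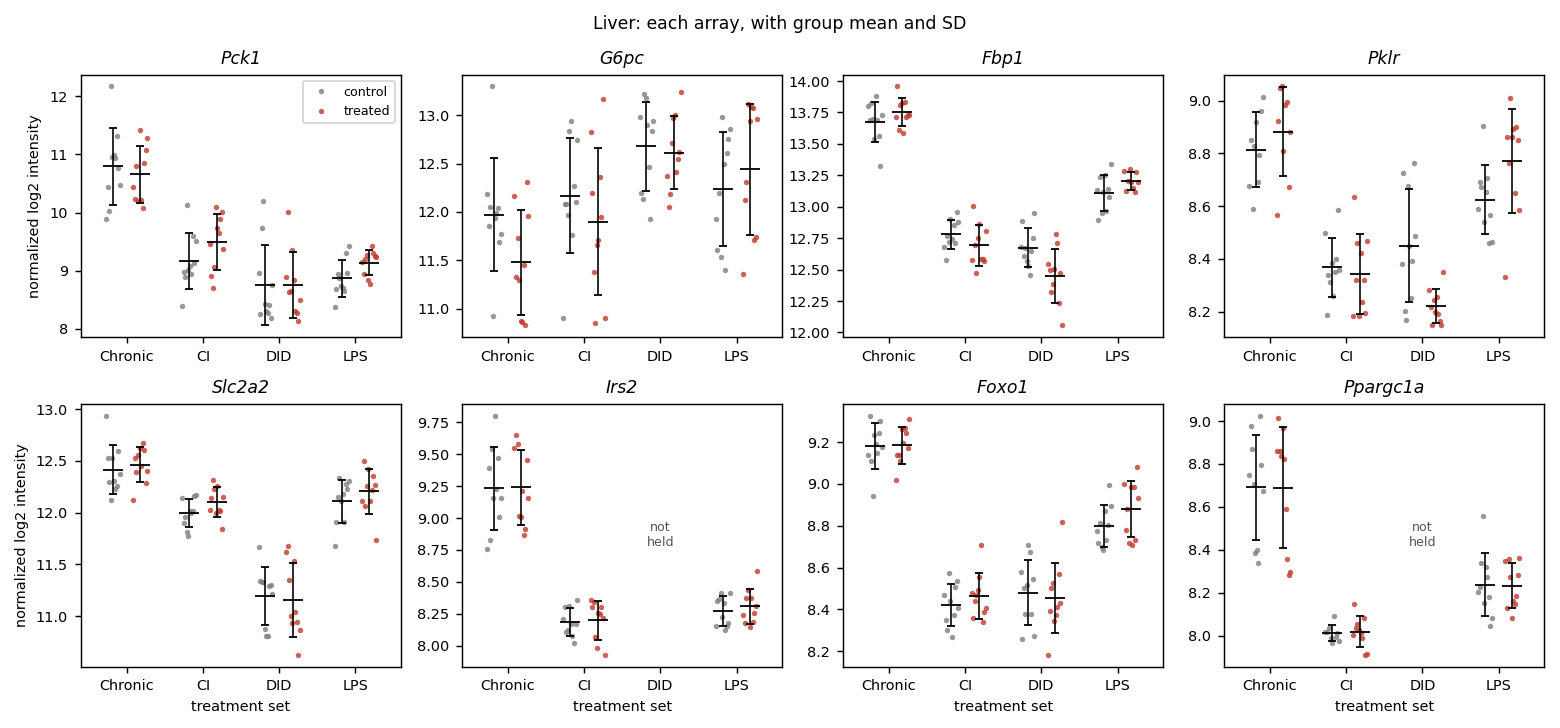
Normalized log2 intensity of each gene in each liver array (grey: control, red: treated), with the mean as a bar and the SD as whiskers, by treatment. The spread within groups is wide for Pck1 and G6pc, Pklr in DID shows treated mice packed between 8.15 and 8.35 under a wide control group, and Irs2 and Ppargc1a were not held in DID.

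Pklr encodes the pyruvate kinase of liver and red cells. In DID liver its controls lay between 8.17 and 8.76 (median 8.42) and the treated mice between 8.15 and 8.35 (median 8.21). All 10 treated mice were below the control median, 3 of them below the lowest control. The difference was -0.23 ± 0.07 (SE, n = 10 per group; 95% interval -0.37 to -0.09), or 1.17-fold lower (p = 0.00281, adjusted p = 0.401). The second probe gave -0.12 ± 0.05 (p = 0.0229, adjusted p = 0.796), with treated mice between 7.87 and 8.12. Both probes lay close to the lowest value of 7.7 in the whole table, where the full size of a decrease could hardly be seen. Across all liver arrays the deviations of both probes from their group means had an r of 0.63. In LPS liver the controls lay between 8.46 and 8.90 (median 8.62) and the treated mice between 8.33 and 9.01 (median 8.86). Both the lowest and the highest value belonged to treated mice, and the difference was 0.15 ± 0.07 (95% interval 0.00 to 0.29; p = 0.0488, adjusted p = 0.429), or 1.11-fold higher. The second probe gave 0.06 ± 0.05 (p = 0.258), and leaving out any one of 14 mice took the brighter probe to a p between 0.0522 and 0.0991. Over all 20 such refits the p of the brighter probe ran from 0.00263 to 0.0991, and the lowest adjusted p was 0.133. The difference was 0.07 ± 0.07 in Chronic and -0.03 ± 0.06 in CI liver, neither DE.

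The DID liver arrays were cut into 3 clusters, a number fixed for every set, in a clustering of the entries with no blank. These held 5, 2 and 3 mice of each group. Within these clusters the Pklr difference was -0.34, 0.06 and -0.24, and that of Fbp1 was -0.24, -0.12 and -0.26. With the clusters as a term in the fit, Pklr was at -0.23 ± 0.06 (p = 0.00158, adjusted p = 0.144) and Fbp1 at -0.22 ± 0.06 (p = 0.00139, adjusted p = 0.135). In the cluster of 2 mice per group Pklr was thus not lower in treated mice. Leaving out any one of the 20 mice left Pklr between -0.26 and -0.20 and Fbp1 between -0.26 and -0.18, each DE every time.

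Slc2a2 encodes GLUT2, the glucose transporter of hepatocytes. With its brightest probe the difference was 0.05 ± 0.09 in Chronic, 0.11 ± 0.06 in CI (p = 0.0916), -0.04 ± 0.13 in DID and 0.10 ± 0.09 in LPS liver (p = 0.286), none of them DE. The other 2 probes gave DE differences in LPS liver, of 0.18 ± 0.08 (p = 0.0317, adjusted p = 0.362) and 0.22 ± 0.08 (p = 0.00957, adjusted p = 0.221). On the latter probe the controls lay between 9.34 and 10.15 (median 9.82) and the treated mice between 9.85 and 10.15 (median 10.07), so that the treated mice filled the upper part of the control range. The deviations of the 2 dimmer probes from their group means had an r of 0.69 over 77 arrays, whereas those of the brightest probe had an r of 0.00 and 0.22 with them. The 3 probes of Slc2a2 therefore did not give one reading, and which of them follows the transcript was not tested.

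The regulators Irs2, Foxo1 and Ppargc1a were DE in no liver comparison. Foxo1, the forkhead factor restrained by insulin, differed most in LPS liver, with controls between 8.68 and 9.00 (median 8.79) and treated mice between 8.71 and 9.08 (median 8.91). The groups overlapped over most of this range, and the difference was 0.08 ± 0.05 (95% interval -0.02 to 0.19; p = 0.123). In the other treatments Foxo1 differed by 0.00 in Chronic, 0.04 in CI and -0.03 in DID liver. Irs2, the insulin receptor adaptor that dominates in the fasted liver, differed by 0.01, 0.02 and 0.04 in Chronic, CI and LPS liver, with SE of 0.13, 0.06 and 0.05. Ppargc1a, the coactivator, differed by 0.00, 0.01 and -0.01, with SE of 0.11, 0.03 and 0.05. Ppargc1a lay between 7.91 and 8.15 in CI and between 8.04 and 8.56 in LPS liver, close to the lowest value of 7.7 in the whole table, where a decrease could hardly be seen. The same limit holds for Irs2, which lay between 7.93 and 8.36 in CI and between 8.12 and 8.58 in LPS liver.

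In PFC these 3 genes were also DE in no treatment, against 4.38%, 5.21%, 3.88% and 9.58% of all entries in Chronic, CI, DID and LPS, and their lowest adjusted p was 0.603. The largest difference was that of Foxo1 in CI, with controls between 8.27 and 8.82 (median 8.42) and treated mice between 8.39 and 9.01 (median 8.63). It amounted to 0.14 ± 0.09 (95% interval -0.04 to 0.32; p = 0.125). In the same set all 7 measured striatal markers of 10 were DE and higher in the treated mice, with a mean level of 8.88 to 11.16 in controls and 9.86 to 11.43 in treated mice over the 6 of them with no blank, and their part in the Foxo1 value was not tested. CI PFC controls 5 and 6 stood apart from the other arrays, with a mean correlation of 0.946, and without them the Foxo1 difference was 0.09 ± 0.09 (p = 0.321). Ppargc1a in LPS PFC lay between 9.04 and 9.48 in controls (median 9.13) and between 8.91 and 9.27 in treated mice (median 9.08). Of the treated mice 3 were below the lowest control, and the difference was -0.09 ± 0.05 (95% interval -0.19 to 0.01; p = 0.0889, adjusted p = 0.603). Irs2 in LPS PFC was among the entries with the smallest spread, with a mean of 8.63 in both groups and a 95% interval of the difference of -0.05 to 0.05.

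**Figure D3:**
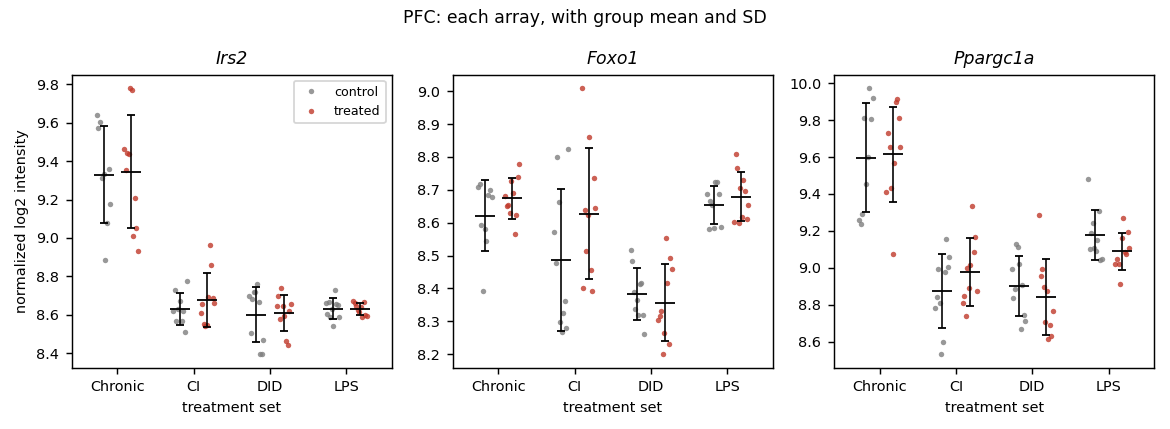
Normalized log2 intensity of Irs2, Foxo1 and Ppargc1a in each PFC array (grey: control, red: treated), with the mean as a bar and the SD as whiskers, by treatment. Treated and control values overlap in all 12 comparisons, and the Foxo1 treated mice of CI reach 9.01 against 8.82 in controls.

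The precision differed widely among the genes. The SD within groups of Pck1 was 0.58, 0.48, 0.63 and 0.27 in Chronic, CI, DID and LPS liver, larger than that of 97.8% to 99.8% of all entries. That of G6pc was 0.56, 0.69, 0.42 and 0.63, larger than that of 97.7% to 99.9%. The median SD over all entries was 0.095 to 0.124. Mice of one group thus differed from each other in Pck1 and G6pc more than in nearly any other transcript, and the 95% intervals of these genes were wide for that reason. Fbp1 varied by 0.11 to 0.19, Pklr by 0.13 to 0.17 and Foxo1 by 0.10 to 0.16. Meal, clock phase and piece of the lobe were not recorded per mouse, and their part in this spread was not tested.

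The change of each gene was also compared between treatments in liver, with 42 tests over the main probes. Of these 6 had a p below 0.05 and none an adjusted p below 0.05. All 6 concerned Pklr or Fbp1, and all but CI less LPS for Fbp1 drew on the same DID mice. The difference of Pklr in DID less that in LPS was -0.38 ± 0.10 (p = 0.000577, adjusted p = 0.133), and that of Fbp1 was -0.32 ± 0.10 (p = 0.00228, adjusted p = 0.251). Chronic less DID gave 0.30 ± 0.10 for Pklr (p = 0.00499) and 0.30 ± 0.10 for Fbp1 (p = 0.00509). The other cases were CI less DID for Pklr, at 0.20 ± 0.09 (p = 0.0295), and CI less LPS for Fbp1, at -0.18 ± 0.08 (p = 0.0319). The G6pc difference in Chronic less that in LPS was -0.70 ± 0.36 (p = 0.0597). The second Pklr probe gave p = 0.0164 in DID less LPS, 0.144 in Chronic less DID and 0.151 in CI less DID. The dimmer Slc2a2 probes gave p = 0.0183 and 0.0246 in DID less LPS, and 1 of them p = 0.0406 in Chronic less DID. Over all probes 10 of 60 tests had a p below 0.05. Over all entries a p below 0.05 was found for 6.85% in DID against LPS, 6.58% in Chronic against DID, 5.04% in CI against DID and 6.62% in CI against LPS. The share was 9.86% in Chronic against CI and 13.4% in Chronic against LPS, where no test of these genes had a p below 0.05.

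Within groups, the deviations of the 6 genes held in all 4 liver sets were set against each other in 15 pairs. Only Pck1 and Pklr passed a permutation test that shuffled mice within groups and was adjusted over the 15 pairs, with a Pearson r of -0.40 over 78 arrays (p = 0.0004, adjusted p = 0.006) and a Spearman rho of -0.35 (p = 0.0029, adjusted p = 0.044). Mice with high Pck1 for their group thus tended to have low Pklr. Within Chronic, CI, DID and LPS the r was -0.39, -0.43, -0.49 and -0.31, it was -0.36 without the DID arrays, and without the 2 arrays farthest from the median of Pck1 it was -0.32. With the second Pklr probe r was -0.46. Of all 8448 other entries 3.40% had an r with Pck1 as low as this or lower. Pck1 and G6pc, both induced by fasting, had an r of 0.23 (p = 0.038, adjusted p = 0.096), which was 0.13 without the 2 farthest arrays.

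**Figure D4:**
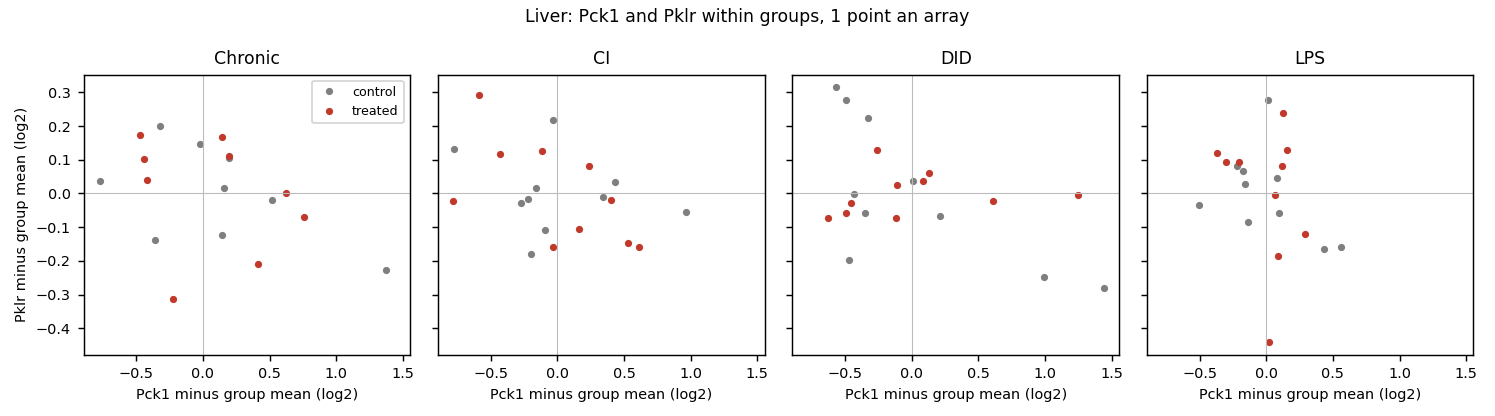
Deviation of Pklr from its group mean (log2) against that of Pck1 in the liver arrays of each treatment, with 1 point per mouse (grey: control, red: treated). The points scatter widely, and r is below 0 in all 4 treatments, between -0.49 and -0.31.

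The entries whose deviations were most like those of each gene over the liver arrays were also listed, with r as a description. For Pck1 these were Slc38a2, an amino acid transporter (r = 0.75), Noct, nocturnin (0.69), and Map1lc3b, an autophagy protein (0.69). For G6pc they were Slc25a25, a mitochondrial carrier (0.58), Angptl4, an inhibitor of lipoprotein lipase (0.55), and Tgoln1 (0.49). For Pklr they were Elovl6, a fatty acid elongase (0.64), Sucnr1, a succinate receptor (0.58), and Aqp8, a water channel (0.57). For Fbp1 they were Echdc3, Reep6 and Uox, the urate oxidase, with r of 0.49 to 0.52. For Slc2a2 they were Cpq, H2-Q7 and Pex7 (0.65 to 0.68), but within CI the r was -0.02 for Cpq and -0.24 for Pex7. For Foxo1 they were P2ry1, Urod and Gne, each at 0.50. Within single treatments the r of the 3 entries of Pck1 was 0.48 to 0.95 and that of the 3 entries of Pklr 0.38 to 0.79. It was 0.01 to 0.74 for those of G6pc, 0.26 to 0.71 for those of Fbp1 and 0.12 to 0.72 for those of Foxo1.

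Single genes around these enzymes changed in Chronic liver. Over all entries there, 12.1% were DE, 1.5% passed the adjusted test and 49.8% had a higher treated mean. Of 11 measured genes of 18 in a list of gluconeogenesis and glucose output, 7 had a higher treated mean, and the median change was 0.01. Of the 11, 2 were DE and higher (Gpd1 and Ldha) and 4 DE and lower, and 1 passed the adjusted test. That gene was Got1, the cytosolic aspartate aminotransferase, which fell from 9.89 to 9.44 (-0.45 ± 0.11, adjusted p = 0.0461). The alanine aminotransferases Gpt and Gpt2 differed by -0.35 ± 0.10 and -0.33 ± 0.10 (adjusted p = 0.0778 and 0.108). Slc37a4, the glucose-6-phosphate transporter that works with G6pc, differed by -0.18 ± 0.07 (adjusted p = 0.308), and Gpd1, glycerol-3-phosphate dehydrogenase, by 0.36 ± 0.12 (adjusted p = 0.147). Of 11 genes of amino acid catabolism 10 had a lower treated mean and 6 were DE and lower, with a median change of -0.16. Of these Agxt, the alanine-glyoxylate aminotransferase, fell by 0.41 on the log2 scale (adjusted p = 0.0238). Of 19 genes of glycolysis and glucose phosphorylation 5 were DE and higher and 4 DE and lower. Khk, ketohexokinase, rose by 0.28 ± 0.07 (adjusted p = 0.0418), and Pdk2, a kinase that restrains pyruvate dehydrogenase, fell from 9.54 to 9.31 (adjusted p = 0.00964). Slc2a9, a urate and hexose transporter, fell from 9.93 to 9.74 (adjusted p = 0.0461).

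**Figure D5:**
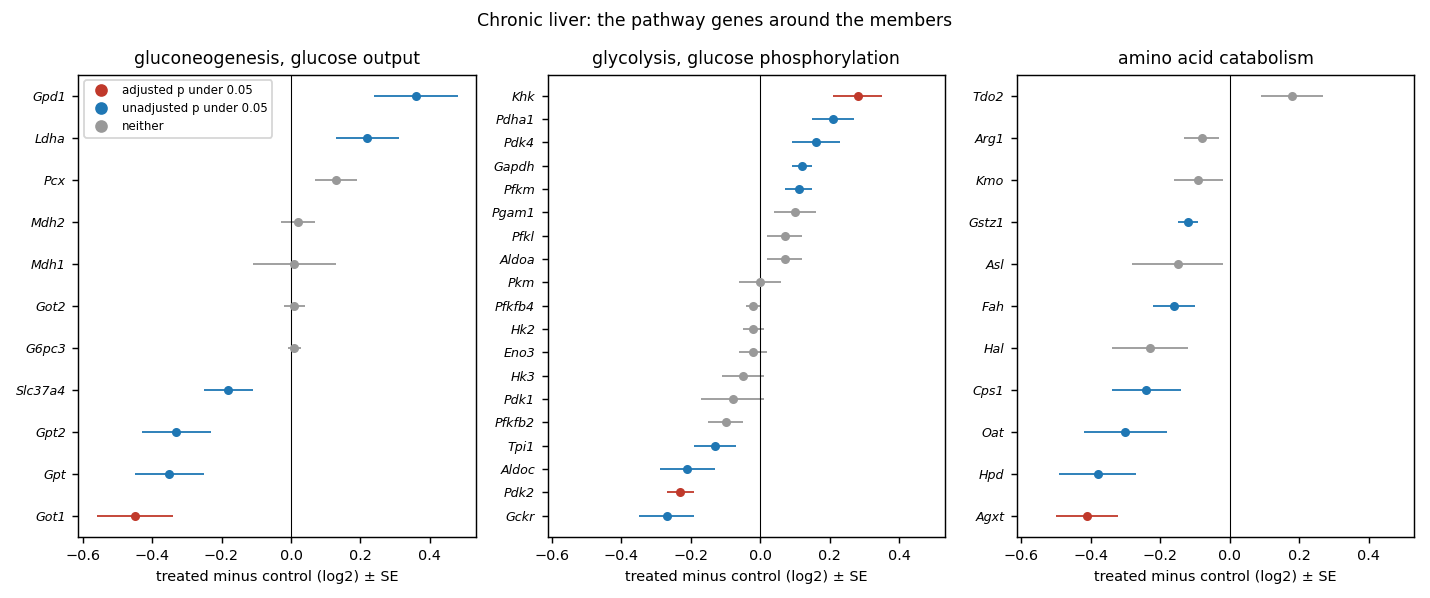
Change in Chronic liver (treated minus control, log2, with SE) of the measured genes of 3 lists, gluconeogenesis and glucose output, glycolysis and glucose phosphorylation, and amino acid catabolism. Red marks an adjusted p below 0.05 (Got1, Khk, Pdk2 and Agxt), blue an unadjusted p below 0.05 and grey neither, and 10 of the 11 genes of amino acid catabolism lie left of 0.

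In CI liver the only listed gene of glucose metabolism past the adjusted test was Ppargc1b, the relative of Ppargc1a, which rose from 8.42 to 8.62 (0.20 ± 0.04, adjusted p = 0.0416). None of 11 genes of gluconeogenesis was DE there, against 10.5% of all entries. In DID liver, where 5.19% of all entries were DE, none of the listed pathway genes passed. Khk (-0.30 ± 0.11), Got1 (-0.29 ± 0.11) and Pygl, the liver glycogen phosphorylase (-0.29 ± 0.08), were DE and lower there, and Pygb, the brain glycogen phosphorylase (0.10 ± 0.03), Srebf1, a lipogenic transcription factor (0.17 ± 0.08), and Slc2a9 (0.10 ± 0.04) were DE and higher. In LPS liver, where 11.6% of all entries were DE, none passed either. Of 10 glycogen genes 2 were DE and higher there, Gys2, the liver glycogen synthase (0.32 ± 0.10), and Pygl (0.13 ± 0.06). Another 2 were DE and lower, Ppp1r3c, a glycogen targeting subunit (-0.52 ± 0.14), and Phkb (-0.08 ± 0.04). Of the 11 genes of gluconeogenesis 3 had a higher treated mean in LPS liver, against 48.8% of all entries. Of the 11, 2 were DE, Slc37a4 higher (0.20 ± 0.06, adjusted p = 0.167) and Gpd1 lower (-0.21 ± 0.07, adjusted p = 0.225). Of the list of insulin and glucagon signalling 1 gene in Chronic (Pik3r1, -0.25 ± 0.07), 2 in CI, none of 8 in DID and 1 in LPS liver were DE. In PFC no gene of the 7 pathway lists passed the adjusted test, which says little, as 0% of all entries passed in Chronic, CI and DID and 0.113% in LPS. Of 5 glucose transporters 1 was DE and higher and 2 DE and lower in LPS PFC (Slc2a1, Slc2a3 and Slc2a6), against 9.58% of all entries. In each of the other lists there at most 1 gene was DE. Hk1 and Slc2a13 were DE in Chronic PFC and Hdac5 in DID PFC, and none was DE in CI PFC, against 4.38%, 3.88% and 5.21% of all entries.

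Genes that report on meals, the clock and cell types differed in some of the same sets, and their part in the values of the 8 genes was not tested. Over all entries 12.1% were DE in Chronic, 11.6% in LPS and 5.19% in DID liver. In Chronic liver, where G6pc was DE, 4 of 8 measured genes raised by fasting were DE and higher, with a mean level of 10.13 to 10.52 in controls and 10.39 to 10.82 in treated mice over the 7 with no blank. Of these Cyp4a14 rose by 0.53 ± 0.09 (adjusted p = 0.00438) and Acot1 by 0.85 ± 0.17 (adjusted p = 0.0172). Of 8 glucocorticoid targets 5 were DE and lower, with a median change of -0.21, and Mt1, a metallothionein, fell from 14.86 to 14.11 (adjusted p = 0.0238). Their mean level was 9.88 to 10.46 in controls and 9.85 to 10.33 in treated mice over the 5 with no blank. Of 10 genes raised by feeding 3 were DE and higher and 3 DE and lower, and Scd1, the fatty acid desaturase, rose by 0.22 ± 0.05 (adjusted p = 0.0441). Of 12 clock genes 3 were DE and higher and 2 DE and lower in Chronic liver, and none passed the adjusted test. The mean level of the clock genes was 10.45 to 10.74 in controls and 10.50 to 10.71 in treated mice over the 11 with no blank. Of 6 periportal hepatocyte markers, which share their zone with Pck1 and G6pc, 5 had a lower treated mean and Cps1 and Ass1 were DE, with a mean level of 13.80 to 14.37 in controls and 13.72 to 14.13 in treated mice over the 5 with no blank. In LPS liver, where Pck1 and Pklr were DE, 6 of 10 genes raised by feeding were DE and higher and 1 DE and lower. Scd1 rose by 0.36 ± 0.07 (adjusted p = 0.0114), and the mean level of the list was 11.10 to 11.73 in controls and 11.15 to 11.92 in treated mice over the 9 with no blank. Of 12 clock genes 5 were DE and higher and 2 DE and lower, and Per1, Tef and Ciart rose (adjusted p = 0.00674, 0.00612 and 0.00183). The 3 measured neutrophil markers of 10 had a mean level of 8.34 to 9.05 in controls and 8.58 to 10.04 in treated mice, and 2 were DE. The 3 measured red cell markers of 10 all had a higher treated mean and 2 were DE, Hbb-bt (0.38 ± 0.14) and Alas2 (0.30 ± 0.08), with a mean level of 10.61 to 11.33 in controls and 10.81 to 11.51 in treated mice. Of 8 Kupffer cell markers 7 had a higher treated mean, and 1, Marco, was DE and passed the adjusted test. Of 9 sinusoidal endothelial markers 3 were DE and higher, 1 of them past the adjusted test. Of 9 pericentral markers 3 were DE and lower. Of 7 glucocorticoid targets 2 were DE and higher, 1 of them past the adjusted test. In DID liver, where Fbp1 and Pklr were DE, none of 7 hepatocyte markers and 1 of 6 periportal markers, Cyp2f2, were DE, and hepatocyte markers had a mean level of 13.82 to 14.06 in controls and 13.75 to 14.00 in treated mice. Of 8 genes raised by fasting 3 were DE and higher there, Cyp4a14 (0.32 ± 0.13), Acot1 (0.29 ± 0.12) and Gadd45a (0.23 ± 0.09), with a mean level of 9.58 to 9.85 in controls and 9.60 to 9.92 in treated mice. Of 8 glucocorticoid targets 3 were DE and lower, Mt1 (-0.83 ± 0.36), Cdkn1a (-0.30 ± 0.10) and Lcn2 (-0.35 ± 0.12), with a mean level of 10.14 to 10.51 in controls and 9.97 to 10.43 in treated mice over the 6 with no blank. Of 10 genes raised by feeding and of 11 clock genes 1 was DE in each direction.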

How the data were processed

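Gene expression was measured on 159 Illumina MouseRef-8 arrays in 16 groups of 9 or 10. The analysis began with the deposited log2 table, which the authors produced with lumi (its version is not given in the sources used here) by variance stabilization and quantile normalization within a tissue and treatment. The authors kept transcripts detected on most arrays and blanked outlying values by Grubbs' test, and blanks were left missing here. Bead signals of the same arrays, in 159 columns with running numbers that no source ties to a mouse, were not used. Of 13983 entries 13181 have 1 gene symbol. The brightest probe on average stood for a gene. Treated less control was fitted in limma 3.58.1 (R 4.3.3) to all entries of each tissue and treatment, with Benjamini-Hochberg adjustment and a threshold of 0.05, and the model was tested on simulated data. Differences between treatments used an interaction term. Permutation tests used 100000 shuffles within groups. The number of arrays limits the precision. The members and gene lists were chosen with earlier results of these data known. All members were named, and of the lists genes past the adjusted test or else up to 4 with the smallest p, with the exceptions in the text chosen after their values were seen. Probes were named through the platform annotation, and chromosomes and promoters are from RefSeq, GRCm38.p6. Nothing in the labels ties mice by number, so groups were compared unpaired.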

Additional observations from a re-analysis of the deposited data

Results flagged for a closer look

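Of 84 groups of 9 or 10 values of the 8 genes, 1 held a value that stood apart from the rest by Dixon's criterion. The authors had already blanked outlying values by Grubbs' test, so this share cannot be set against chance. In Chronic liver, G6pc of control replicate 4 was 13.30 and the nearest other control was 12.18, a gap of 0.47 of the whole range, just past the critical value. The G6pc difference without this mouse was -0.34 ± 0.20 (p = 0.0963).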

How the results depend on the processing

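Of 334 comparisons of 42 changes with 10 alternatives, 327 stayed on their side of the unadjusted threshold of 0.05, 5 lost the DE call and 2 gained it. None of the DE changes turned its direction. Among the 327 were 8 values that were not DE and changed sign. None of these alternatives gave an adjusted p below 0.135. Among the refits without 1 liver array, described below, the lowest was 0.107, for Pck1 in LPS without control 10. With 3 array clusters as a term, 3 of 30 changes in liver were DE instead of 5, because G6pc in Chronic (-0.35, p = 0.102) and Pck1 in LPS (0.21, p = 0.0598) were lost. In LPS liver 1 cluster was a single control and 1 a single treated mouse, and in Chronic liver 1 was a single control. G6pc in Chronic was also lost with an intensity trend and robust prior (p = 0.0566) and with array weights (-0.41, p = 0.0765). The cause was not tested. With the replicate block, 6 of 30 changes were DE, Fbp1 in LPS being added (0.11, p = 0.0446), and in PFC still 0 of 12. In no set did every pair of same-numbered mice correlate above 0.1, and in no set was every treated mouse closest to its own number. The median correlation was -0.155 to 0.0330 in the liver sets and -0.115 to 0.258 in PFC, and 9 of 10 pairs in CI PFC were above 0.1. In PFC no change was DE under any alternative run. Each covered 12 changes, except that those limited to entries with no blank covered 10. The alternatives in PFC included leaving out CI controls 5 and 6, chosen after seeing the data. Leaving out each liver array in turn was also chosen after seeing the data. It ended the DE call of G6pc in Chronic, at -0.61 to -0.34, without any one of controls 1, 2, 3, 4, 6, 7 and 8 and treated mice 2, 4, 5, 6, 7 and 8, and that of Pklr in LPS, at 0.12 to 0.19, without any one of controls 1, 3, 5, 6, 8, 9 and 10 and treated mice 2, 3, 4, 5, 6, 8 and 9. Changes that became DE were Pck1 in CI without control 4 (0.43, p = 0.0258) or treated 3 (0.41, p = 0.0419), Slc2a2 in CI without control 10 (p = 0.0495) or treated 9 (p = 0.0273), Fbp1 in CI without treated 2 (p = 0.0353), Fbp1 in LPS without control 6 (p = 0.0444) or control 10 (p = 0.0189) and Foxo1 in LPS without control 9 (p = 0.0484). Pck1 in LPS and Pklr and Fbp1 in DID stayed DE each time. Alternatives on background correction, normalization from bead signals, detection and beadchip were not run, because the signal columns could not be tied to mice.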
